A study of Mus musculus with 6 samples.

Results

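Ceramide synthases are the enzymes that join a fatty acyl chain to a sphingoid base, and the mouse genes for them carry the older name Lass on these arrays and the name Cers in RefSeq. The genes Lass1, Lass2, Lass4, Lass5 and Lass6 were taken as 1 family, and the probes were those with exactly that gene name in the scanner files. Of the 5 names, 4 had a probe, with 1 probe each, among 55681 probes for mouse RNA, and no probe was named Lass1. The family was selected on its measured values in these arrays, since Lass4 was much brighter in both knockouts than in WT. The values of its members against WT are therefore a description, and nothing is concluded from whether they pass a threshold.

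The cells were MEF, fibroblasts grown out of mouse embryos and then immortalized. RNA came from WT MEF (strain label W4), MEF knocked out for TIA1 (TIA1 KO, strain label BALB/c) and MEF knocked out for TIAR (TIAR KO, strain label C57BL/6), with 2 arrays of independent samples per group and 6 arrays in all. TIA1 and TIAR are related RNA-binding proteins that act in splicing and translation. Each group has its own strain label, so that effects of genotype cannot be told apart from those of strain or of the single line. The WT and TIAR KO arrays shared a row of the 1 slide used and the TIA1 KO arrays lay on the other, so that slide row cannot be told apart from TIA1 KO either. The TIA1 KO arrays also stood apart in signal, with median intensities of 458 and 218 against 119 to 152 on the other 4, and with 16000 and 19920 probes well above background against 23531 to 26254. The correlation between the replicates was 0.972 for TIA1 KO, 0.989 for WT and 0.988 for TIAR KO. How the WT line was chosen, how the cells were immortalized and which part of each gene was deleted are not given in the sources used here.

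Ceramide is the branch point of sphingolipid metabolism. It is built from serine and palmitoyl-CoA by serine palmitoyltransferase, a reductase, a ceramide synthase and a desaturase, and it is then turned into sphingomyelin or glycosphingolipids, or broken down to sphingosine and sphingosine 1-phosphate, a ligand of cell surface receptors. The ceramide synthases lie in the endoplasmic reticulum membrane and differ in the acyl chain they prefer. Cers2 is known for very long chains, Cers1 and Cers4 for long chains such as stearate, Cers5 and Cers6 for palmitate, and Cers3 for the ultra-long chains of skin and testis.

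The probes of this design are 60 bases long, and the last 30 bases of the probes of Lass2, Lass4 and Lass5 are printed to show which transcript end was read. Positions are on mm9 as the files give them, the sequences run 5′ to 3′ along the transcript, and capitals mark AATAAA or ATTAAA, the usual polyadenylation signals, searched on the probe's strand.
Lass2 probe, chr3:95127193-95127222, plus strand: ccttaaatacaagtcaatgaagtgaaggag
Lass4 probe, chr8:4524018-4524047, plus strand: ctttggctccaaggaccAATAAAacgtcaa
Lass5 probe, chr15:99566036-99566065, minus strand: atactattgcttattcttctgtgATTAAAt
The Lass4 probe held AATAAA, the Lass5 probe held ATTAAA, and the Lass2 probe held neither. Among all 55681 probes, 10.1% held AATAAA and 3.95% held ATTAAA. The longest run of bases that any pair of these 3 probes had in common was 6, between Lass2 and Lass5. The GC content was 55.0% in the Lass4 probe and 35.0% in each of the others.

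The 250 bases before a RefSeq start site (GRCm38.p6) are printed for Lass4, the member that was brighter in both knockouts, and for Lass5 and Lass2, the members whose readings lay furthest below WT in TIAR KO MEF. Capitals mark GGGCGG, the GC box, and CCAAT, the CCAAT box, each searched on both strands.
Cers4, chr8:4493155-4493404, plus strand: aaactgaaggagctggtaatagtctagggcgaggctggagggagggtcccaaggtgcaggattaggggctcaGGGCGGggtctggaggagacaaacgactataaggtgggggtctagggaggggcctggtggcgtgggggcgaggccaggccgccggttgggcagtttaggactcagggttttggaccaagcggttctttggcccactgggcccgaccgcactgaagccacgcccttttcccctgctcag
Cers5, chr15:99772516-99772765, minus strand: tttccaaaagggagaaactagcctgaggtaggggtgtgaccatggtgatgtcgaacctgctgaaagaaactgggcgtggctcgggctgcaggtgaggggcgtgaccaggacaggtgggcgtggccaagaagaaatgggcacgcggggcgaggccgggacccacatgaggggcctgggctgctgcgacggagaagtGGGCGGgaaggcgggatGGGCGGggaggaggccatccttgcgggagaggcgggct
Cers2, chr3:95314940-95315189, plus strand: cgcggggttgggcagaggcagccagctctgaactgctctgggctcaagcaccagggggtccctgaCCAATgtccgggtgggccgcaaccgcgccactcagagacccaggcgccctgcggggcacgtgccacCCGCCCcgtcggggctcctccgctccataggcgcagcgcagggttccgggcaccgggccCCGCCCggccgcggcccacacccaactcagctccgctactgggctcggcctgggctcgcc
The Cers4 window held 1 GC box, the Cers5 window 2 GC boxes, and this Cers2 window, the first of 2 start sites in RefSeq, 2 GC boxes and 1 CCAAT box. A GC box was found in 32.7% and a CCAAT box in 33.8% of 32851 such windows. TATAAA, the TATA box, was in 12.4% of all windows and in none of these 3. The windows had a GC content of 63.2%, 65.6% and 74.8% in that order, against a median of 52.4% over all windows.

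Lass4 (Cers4, chromosome 8, 4523988 to 4524047) was near background in WT MEF and bright in every knockout array. Its normalized log2 intensity was 7.31 and 6.67 with WT RNA, 12.99 and 13.09 with TIA1 KO RNA, and 12.95 and 12.87 with TIAR KO RNA. The 4 knockout arrays lay within 0.21 of each other, and the groups did not overlap with WT. The log2 fold change against WT was 6.05 ± 0.26 for TIA1 KO (here and below the standard error of limma, n = 2 arrays a group), a fold of 66.1, and 5.92 ± 0.24 for TIAR KO, a fold of 60.5. Of the 55681 probes, 33 rose by more in TIA1 KO MEF and 39 by more in TIAR KO MEF. As whole cell populations were measured, more cells with Lass4 RNA and more Lass4 RNA per cell cannot be told apart.

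The unprocessed spots had the same order. The Lass4 spot had an intensity of 190 and 147 with WT RNA, 8207 and 9136 with TIA1 KO RNA, and 7560 and 5969 with TIAR KO RNA, where the negative controls, spots that match no mouse RNA, had medians of 112 and 103, 196 and 119, and 96.7 and 88.6. The scanner software rated Lass4 as well above background on all 6 arrays. After normalization, however, the value of WT replicate 2, 6.67, lay under the 95th percentile of the negative controls on that array, 6.79. The size of the fold rests on these low WT values. In the authors' own log2 table Lass4 read 7.76 and 7.47 in WT, 13.23 and 13.22 in TIA1 KO and 13.02 and 12.98 in TIAR KO MEF, which gave differences of 5.61 and 5.385.

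**Figure D1:**
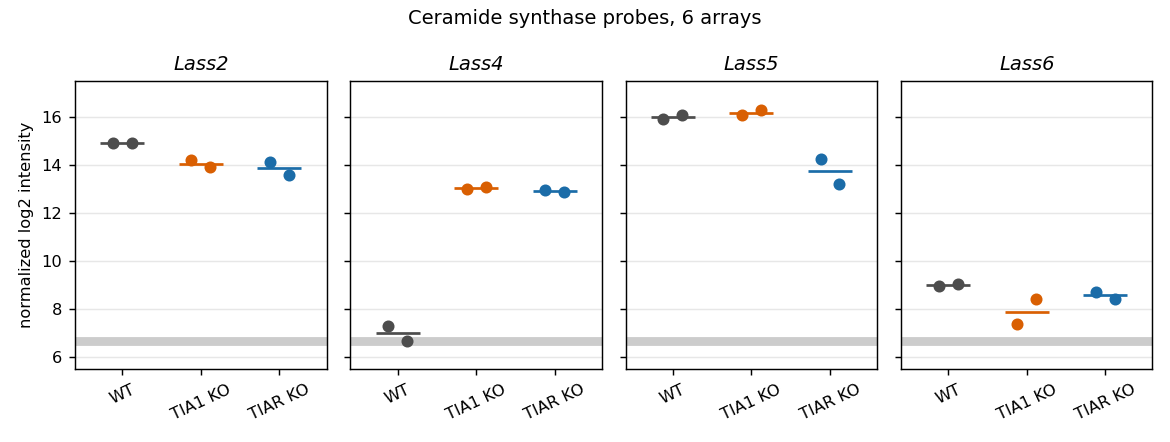
Normalized log2 intensity of the 4 ceramide synthase probes on the 6 arrays: points are single arrays, lines are group means, and the grey band spans the medians of the negative controls on the 6 arrays. Lass4 lies near the band in WT MEF and near 13 on all 4 knockout arrays, while Lass5 is lower on both TIAR KO arrays than on the other 4.

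Lass5 (Cers5, chromosome 15, 99566036 to 99566095) was bright throughout and lowest in TIAR KO MEF. Its log2 intensity was 15.90 and 16.09 with WT RNA, 16.09 and 16.28 with TIA1 KO RNA, and 14.27 and 13.20 with TIAR KO RNA. Both TIAR KO arrays lay under all others, 1.07 apart from each other, and the WT and TIA1 KO arrays were within 0.38 of each other. The log2 fold change against WT was −2.26 ± 0.36 for TIAR KO, a fold of 4.80, and 0.19 ± 0.17 for TIA1 KO. When arrays were only brought to a common median, the TIA1 KO value was −1.34, where the median of all probes was itself −0.67.

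Lass2 (Cers2, chromosome 3, 95127163 to 95127222) was lower in both knockouts by about 1 log2 unit. It read 14.92 and 14.90 with WT RNA, 14.20 and 13.92 with TIA1 KO RNA, and 14.13 and 13.58 with TIAR KO RNA. All 4 knockout arrays lay under both WT arrays, and the 2 knockouts overlapped with each other. The log2 fold change against WT was −0.85 ± 0.18 for TIA1 KO and −1.06 ± 0.22 for TIAR KO, and it was negative under all 13 processing alternatives in each. Alternatives that only refit the same values could not change it. Leaving out an array could not turn its sign, as the groups did not overlap with WT. With a common array median the fold change was −2.45 for TIA1 KO and −1.51 for TIAR KO.

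Lass6 (Cers6, chromosome 2, 68948945 to 68949004) was dim in all groups. It read 8.94 and 9.05 with WT RNA, 7.36 and 8.41 with TIA1 KO RNA, and 8.70 and 8.44 with TIAR KO RNA. The knockout arrays were all under the WT arrays, and TIA1 KO replicate 1, the lowest, was not rated well above background. The log2 fold change against WT was −1.11 ± 0.39 for TIA1 KO and −0.43 ± 0.16 for TIAR KO, and the first was −0.59 without TIA1 KO replicate 1 but −1.64 when replicate 2 was left out.

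A probe was called when its adjusted p in limma (Benjamini-Hochberg over all probes) was under 0.05 and its fold above 2. In TIA1 KO MEF 1 of the 4 members was called, Lass4, where 3.54% of all probes were called, 2.18% higher and 1.36% lower. In TIAR KO MEF 2 of the 4 were called, Lass4 higher and Lass5 lower, where 5.76% of all probes were called, 3.39% higher and 2.37% lower. The Lass5 call was lost without WT replicate 1 and without WT replicate 2, with log2 fold changes of −2.36 and −2.17. The Lass4 call in TIA1 KO MEF was lost in the same settings, with 6.36 and 5.73, and it was also lost with processed intensities. Other members passed the rule under some alternatives. In TIAR KO MEF Lass2 did so without loess (−1.04), with a common array median (−1.51), with dim probes left out (−1.06) and without TIAR KO replicate 1 (−1.33). In TIA1 KO MEF Lass2, Lass5 and Lass6 did so with a common array median (−2.45, −1.34 and −1.58), and Lass6 without TIA1 KO replicate 2. As the members were chosen by these same values, nothing is read from these counts. The median log2 fold change over all probes was −0.09 for TIA1 KO and −0.02 for TIAR KO.

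The knockouts were also compared with each other, on the same 4 knockout arrays. As Lass4 was chosen for being high in both knockouts, a small difference between them was favoured by that choice, and its value is a description. None of the other 3 members was called, with 1 of them, Lass5, at an unadjusted p under 0.05 in limma, where 3.35% of all probes were called, 1.72% higher in TIAR KO MEF and 1.63% lower. Lass4 differed by −0.13 on the log2 scale (TIAR KO minus TIA1 KO), but by 0.89 with a common array median. Lass5 differed by −2.46 ± 0.40 (95% interval −3.53 to −1.38, limma adjusted p = 0.0635), so that it missed the threshold while its interval lay below 0. It was called with all 3 groups in 1 fit (limma adjusted p = 0.0173) and with dim probes left out (limma adjusted p = 0.0263). A common array median also called it, at −1.35 (limma adjusted p = 0.0393). The authors' table did not (−2.425, limma adjusted p = 0.0829), nor did the replicate number as a block (−2.46, limma adjusted p = 0.152). With an array left out its value ran from −2.99 to −1.92. Lass2 differed by −0.20 (interval −0.91 to 0.50, limma adjusted p = 0.652) and Lass6 by 0.69 (interval −0.39 to 1.76, limma adjusted p = 0.363). The Lass2 difference turned to 0.94 with a common array median and to 0.076 without TIAR KO replicate 2. The Lass6 difference was 0.16 without TIA1 KO replicate 1 (limma adjusted p = 0.727) and 1.21 without TIA1 KO replicate 2, where it was called (limma adjusted p = 0.0213).

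**Figure D2:**
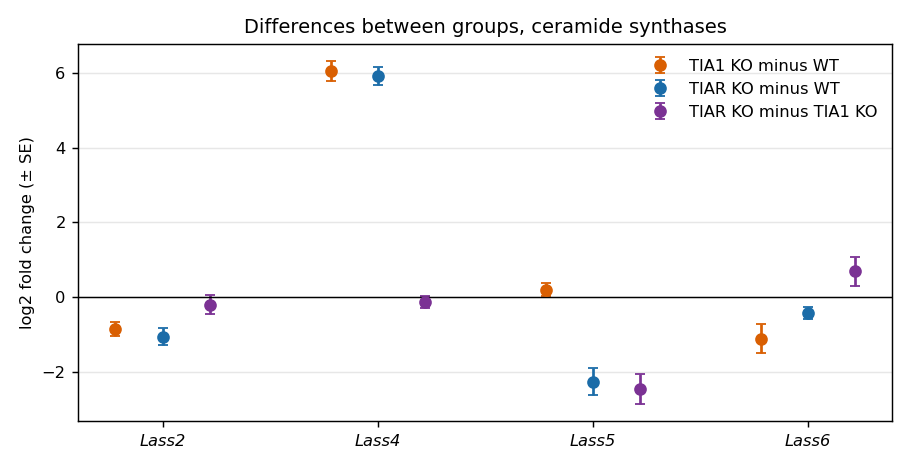
Log2 fold changes of the 4 ceramide synthases between groups, with standard errors from limma on 2 arrays per group. Lass4 stands near 6 in both knockouts against WT and near 0 between the knockouts, and Lass5 stands near −2 in the contrasts that hold TIAR KO.

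The gene Cers1 shares its transcript with Gdf1, a growth factor gene of the TGF-beta family, and both Gdf1 probes of the array list a Cers1 transcript (NM_138647) among their RefSeq accessions. The brighter Gdf1 probe (chromosome 8, 72855399 to 72855458) was higher in both knockouts. It read 8.62 and 8.88 in WT, 12.11 and 12.25 in TIA1 KO and 10.16 and 10.37 in TIAR KO MEF. The 3 groups did not overlap, with TIA1 KO highest. The log2 fold change against WT was 3.43 ± 0.18 for TIA1 KO (limma adjusted p = 0.00679) and 1.52 ± 0.17 for TIAR KO (limma adjusted p = 0.00766), and the knockouts differed by −1.92 ± 0.17 (TIAR KO minus TIA1 KO, limma adjusted p = 0.0208). With a common array median the TIA1 KO value was 2.25 and the difference between the knockouts −0.91, under 2-fold. The other Gdf1 probe (72853479 to 72853538) was not well above background on any array and read between 6.72 and 6.89. These probes do not separate Gdf1 RNA from the RNA that encodes both proteins, so no level is given for Lass1.

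Lass3 (Cers3), which was not among the 5 genes, had 2 probes on chromosome 7. The brighter one (73968501 to 73968560) read 8.15 and 8.81 in WT, 7.59 and 8.34 in TIA1 KO and 7.99 and 7.45 in TIAR KO MEF. Both TIAR KO arrays lay under both WT arrays, and TIA1 KO overlapped with each of the others. It was not called in any comparison, with limma adjusted p = 0.394 for TIA1 KO and 0.243 for TIAR KO. The other probe (73966654 to 73966713) was not well above background on any array.

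**Figure D3:**
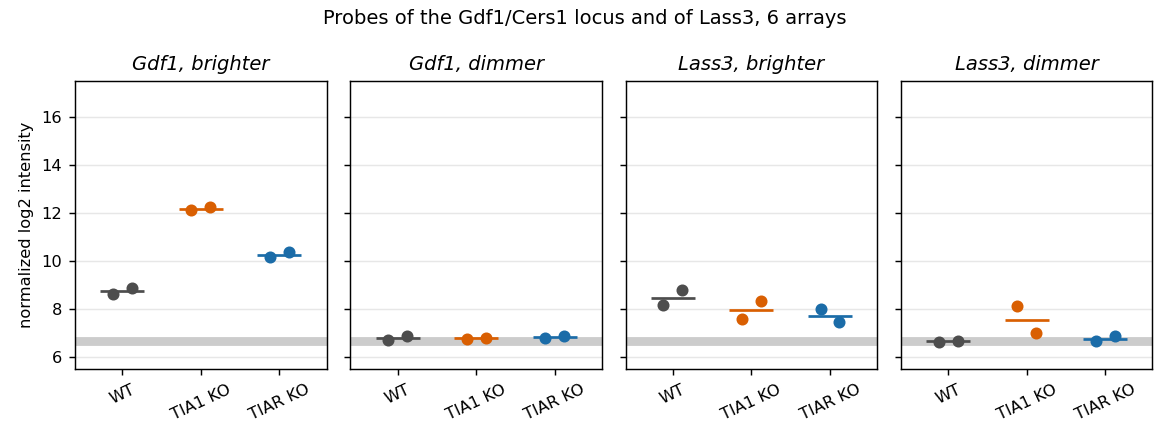
Normalized log2 intensity of the probes of the Gdf1/Cers1 locus and of Lass3, drawn as for the ceramide synthases, with the medians of the negative controls as a grey band. The brighter Gdf1 probe separates the 3 groups, and the other probes stay between 6 and 9 on all arrays.

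The labels were checked at the deleted genes. Tia1 was read by its brightest probe at 10.72 and 8.54 in WT, 7.87 and 8.44 in TIA1 KO and 9.56 and 9.58 in TIAR KO MEF, and it was not called in TIA1 KO MEF (limma adjusted p = 0.288). Of the other Tia1 probes, 1 had a value of −1.62 ± 0.42 in TIA1 KO MEF (limma adjusted p = 0.116), and 1, not well above background on either WT array, had a value of 0.87 ± 0.28, higher in the knockout (limma adjusted p = 0.149). Tial1, the gene of TIAR, was read by its brightest probe at 13.22 on 1 WT array (its spot on the other was an outlier and was left out), 9.57 and 11.60 in TIAR KO MEF, and 14.07 and 13.69 in TIA1 KO MEF (limma adjusted p = 0.200 for TIAR KO against WT). A second Tial1 probe fell by 1.58 ± 0.26 on the log2 scale in TIAR KO MEF (limma adjusted p = 0.0254). It differed by −1.85 ± 0.23 between the knockouts (TIAR KO minus TIA1 KO, limma adjusted p = 0.0383). Transcripts of a deleted gene can still bind a probe outside the deleted part, so these array values alone do not check the labels. The study also examined both genes by western blotting and RT-PCR, with reported outcomes that run the way the labels say. Those measurements are not analysed here. The 8 probes named Gapdh, a glycolytic enzyme used as a reference, had log2 fold changes from −0.39 to 0.10 for TIA1 KO and from −0.29 to 0.09 for TIAR KO.

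Most of the fibroblast markers were called higher in the knockouts, as Lass4 was. Of 9 markers, TIA1 KO MEF had 6 and TIAR KO MEF 7 called higher, and none lower, where 4.51% and 7.18% of all gene names were called in either direction. S100a4 and Vim were not called in either knockout, nor was Thy1 in TIA1 KO MEF, where no call of any probe remained without either WT array. Their summed normalized intensity was 533395 and 567027 with WT RNA, 1314176 and 1289059 with TIA1 KO RNA, and 1340213 and 1361003 with TIAR KO RNA, with S100a4 the brightest. Pdgfra, a growth factor receptor of fibroblasts, was not well above background on either WT array, nor was Thy1 on either TIA1 KO array. The part of these differences in the rise of Lass4 was not tested.

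Markers of other cell types were read in the same way. The 3 epithelial markers summed to 379 and 370 with WT RNA, 347 and 550 with TIA1 KO RNA, and 1513 and 1401 with TIAR KO RNA, where Cdh1 and Krt18 were called higher and Krt18 was the brightest. No epithelial marker was well above background on both arrays of WT or of TIA1 KO, so those sums lie near background. In TIAR KO MEF 2 of the 3 were. The 3 endothelial markers summed to between 2742 and 3604, with Kdr the brightest and Cdh5 not well above background on any array. The 3 leukocyte markers summed to 2223 and 1401 in WT, 1364 and 1386 in TIA1 KO and 3524 and 3408 in TIAR KO MEF, with Cd68 the brightest and Ptprc and Emr1 not well above background on any array, so that this sum is mostly Cd68. None of the 3 was called against WT, and their median log2 fold change in TIAR KO MEF was −0.25. Between the knockouts Cd68 was called higher in TIAR KO MEF (1.48, limma adjusted p = 0.0264), as were Cdh1 and Krt18 among the epithelial markers (limma adjusted p = 0.041 and 0.0463). The epithelial and leukocyte sums were highest where Lass5 was lowest, in TIAR KO MEF. So were the endothelial sum and that of the fibroblast markers, and the part of any of them in that was not tested.

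Of the other genes of sphingolipid metabolism, 77 were listed in 5 groups and all had a probe, and in each comparison with WT 61 had both arrays of at least 1 group well above background. In TIA1 KO MEF 8 of the 77 were called (10.4%), 7 higher and 1 lower, and in TIAR KO MEF 12 were called (15.6%), 7 higher and 5 lower. The balance turned over with a common array median, with 4 higher and 30 lower in TIA1 KO MEF and 5 higher and 8 lower in TIAR KO MEF. Over all 34797 gene names, read by the brightest probe as these were, 4.51% and 7.18% were called. These shares also stand beside the counts of each list below, and they count dim probes too. With dim probes left out, 2922 of 23423 probes and 14 of the 61 listed genes were called in TIA1 KO MEF. In TIAR KO MEF these were 3334 of 25187 probes and 14 of the 61 genes. The median log2 fold change of the 77 genes was 0.26 for TIA1 KO and −0.03 for TIAR KO. Sphk1, B4galnt1 and Elovl4 were called in both. Without WT replicate 1 or WT replicate 2 limma called 0 of all probes in TIA1 KO MEF, with 7202 and 7415 at an unadjusted p under 0.05, so that none of these 8 could remain called. Their fold changes kept their direction and a size above 2-fold there, and moved by at most 0.37 on the log2 scale. Without TIA1 KO replicate 2, 14 of the 77 were called.

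The de novo pathway holds the enzymes on either side of the ceramide synthases. None of the 11 genes of de novo synthesis was called in any comparison with limma, while 3 for TIA1 KO, 1 for TIAR KO and 5 between the knockouts had an unadjusted p under 0.05. Over all gene names 4.51%, 7.18% and 4.18% were called, so that nothing is read from the lack of calls among 11 genes. Sptlc1 and Sptlc2, subunits of serine palmitoyltransferase, had log2 fold changes of 0.66 and 0.15 for TIA1 KO and of 0.27 and −0.41 for TIAR KO. Degs1, the dihydroceramide desaturase, read between 15.73 and 16.05 on the 6 arrays. Both TIA1 KO arrays were above the other 4, and WT and TIAR KO overlapped. For these 3 genes against WT the limma adjusted p lay between 0.105 and 0.965.

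Acyl chain supply held 14 genes. Elovl4, which elongates very long fatty acids, was lower in both knockouts. It read 12.53 and 12.49 in WT, 10.99 and 11.28 in TIA1 KO and 7.98 and 8.03 in TIAR KO MEF. Its 3 groups did not overlap, and the log2 fold change against WT was −1.37 ± 0.18 for TIA1 KO (limma adjusted p = 0.0416) and −4.51 ± 0.14 for TIAR KO (limma adjusted p = 0.00021). The TIA1 KO call was lost in the authors' table (−1.21) and with processed intensities (−1.41), and the value was −2.75 with a common array median. The knockouts differed by −3.13 (limma adjusted p = 0.00942). Elovl7, another fatty acid elongase, rose by 2.54 ± 0.15 in TIA1 KO MEF (limma adjusted p = 0.00874; 1.23 with a common array median) and had a value of −0.08 in TIAR KO MEF. These were the 2 genes of the 14 called in TIA1 KO MEF, and Elovl4 was the 1 called in TIAR KO MEF.

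Sphingomyelin turnover held 12 genes, of which none was called in TIA1 KO MEF (limma, 3 at an unadjusted p under 0.05) and 2 in TIAR KO MEF, both higher. Smpdl3a, a phosphodiesterase related to acid sphingomyelinase, read 7.42 and 7.45 in WT, 7.50 and 8.48 in TIA1 KO and 13.82 and 13.70 in TIAR KO MEF. It rose by 6.33 ± 0.14 in TIAR KO MEF (limma adjusted p = 0.000176), and the knockouts differed by 5.77 (limma adjusted p = 0.0109). Its value in TIA1 KO MEF was 0.56 (limma adjusted p = 0.358). That value turned to −0.13 in the authors' table, −0.18 with a common array median and −0.05 without loess. Smpd3, the neutral sphingomyelinase that releases ceramide from sphingomyelin, rose by 4.58 ± 0.34 in TIAR KO MEF (limma adjusted p = 0.00205) and had a value of 1.99 in TIA1 KO MEF (limma adjusted p = 0.0552). Sgms2, a sphingomyelin synthase, differed between the knockouts by −1.38 ± 0.16 (TIAR KO minus TIA1 KO, limma adjusted p = 0.0354), but it was not called in the authors' table (−1.36), with processed intensities (−1.33) or with a common array median (−0.52).

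Among the 17 genes of ceramidases and sphingosine 1-phosphate, 4 were called in TIA1 KO MEF, all higher, and 5 in TIAR KO MEF, 3 higher and 2 lower. S1pr1 and S1pr3, receptors of sphingosine 1-phosphate, were called in TIA1 KO MEF, and the receptors S1pr2 and S1pr5 in TIAR KO MEF. S1pr3 read 7.41 and 6.68 in WT MEF, where it was not well above background, 11.89 and 11.99 for TIA1 KO, and 7.19 and 7.24 for TIAR KO. For a probe not well above background, the fold was taken against the higher, on each array, of its own reading and the lowest signal rated well above background, and is a bound. For S1pr3 its own readings were the higher on all 4 of these arrays. Under the main scaling it was at least 29.8-fold higher in TIA1 KO than in WT MEF (limma adjusted p = 0.00874). It was at least 26.4-fold higher than in TIAR KO MEF (limma adjusted p = 0.00569). On the log2 scale these differences were 4.90 and, as TIAR KO minus TIA1 KO, −4.72. With a common array median they were smaller, at 4.06 and −4.13, and the first was 4.53 without WT replicate 2. S1pr1 rose by 1.55 in TIA1 KO MEF (limma adjusted p = 0.0395), but it was not called in the authors' table (1.235) or with a common array median (0.75). In TIAR KO MEF S1pr2 rose by 1.23 (limma adjusted p = 0.0149), though it was not called with a common array median (0.84) or with processed intensities (1.30). S1pr5 was at least 2.99-fold higher in TIAR KO than in WT MEF, where it was not well above background (limma adjusted p = 0.00501). It was at least 2.18-fold higher than in TIA1 KO MEF (limma adjusted p = 0.0443), a call lost with processed intensities (1.93 on the log2 scale).

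Of the other genes of that branch, Sgpp2, Spns2, Acer3 and Sphk1 held calls against WT. Sgpp2, a sphingosine 1-phosphate phosphatase, was at least 4.05-fold higher in TIA1 KO than in WT MEF (limma adjusted p = 0.0288). Spns2, which exports sphingosine 1-phosphate, rose by 2.56 ± 0.14 in TIAR KO MEF (limma adjusted p = 0.000811). Acer3, an alkaline ceramidase, read 12.49 and 12.31 in WT, 12.35 and 12.34 in TIA1 KO and 10.57 and 10.74 in TIAR KO MEF. It fell by 1.75 ± 0.16 on the log2 scale in TIAR KO MEF (limma adjusted p = 0.00361), with a value of −0.05 in TIA1 KO MEF, and the knockouts differed by −1.70 (limma adjusted p = 0.0228), a call lost with a common array median (−0.58) and with processed intensities (−2.08). Of the 12 calls among the 77 genes in TIAR KO MEF, 7 remained called without any 1 of the 4 arrays, namely those of Acer3, S1pr5, Spns2, Smpd3, Smpdl3a, B4galnt1 and Elovl4.

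Sphk1, the kinase that makes sphingosine 1-phosphate, was called in opposite directions. It read 12.78 and 12.81 in WT, 13.93 and 14.14 in TIA1 KO and 11.73 and 11.66 in TIAR KO MEF. Its 3 groups did not overlap, and the log2 fold change was 1.24 ± 0.16 for TIA1 KO (limma adjusted p = 0.0425) and −1.10 ± 0.14 for TIAR KO (limma adjusted p = 0.0114), while with a common array median the first was −0.33. The first was not called in the authors' table (1.225) either, and the second call was lost with processed intensities and whichever of its 4 arrays was left out. The difference between the knockouts was −2.34 (TIAR KO minus TIA1 KO, limma adjusted p = 0.0131), and it was −1.21 with a common array median and −2.21 with processed intensities, where it was not called.

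The 23 glycosphingolipid genes held 2 calls in TIA1 KO MEF, both higher, and 4 in TIAR KO MEF, 2 higher and 2 lower. B4galnt1, which makes the gangliosides GM2 and GD2, was higher in both. It read 8.57 and 8.97 in WT, 12.25 and 12.27 in TIA1 KO and 10.88 and 10.95 in TIAR KO MEF, log2 fold changes of 3.48 ± 0.20 (limma adjusted p = 0.00824) and 2.14 ± 0.19 (limma adjusted p = 0.00316). With a common array median these were 2.25 and 1.935. St3gal5, the GM3 synthase, rose by 1.52 in TIA1 KO MEF (limma adjusted p = 0.0259), and its value was −0.05 with a common array median. Ugcg, which adds glucose to ceramide, fell by 1.27 in TIAR KO MEF (limma adjusted p = 0.00941). Gltp, a glycolipid transfer protein, fell there by 1.31 (limma adjusted p = 0.0226). B4galt6, a lactosylceramide synthase, rose there by 1.17 (limma adjusted p = 0.0155), though it was not called with a common array median (0.99). With processed intensities Ugcg (−1.52), Gltp (−1.45) and B4galt6 (1.475) were not called in TIAR KO MEF. In TIA1 KO MEF none of them was called, but Gltp (−1.62) and B4galt6 (1.505) had values of the same sign. Ugcg had a value of 1.11 there, of the opposite sign, and of −0.45 with a common array median. Between the knockouts Ugcg was called lower in TIAR KO MEF (−2.38), but not with a common array median (−1.26) or processed intensities (−2.47).

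**Figure D4:**
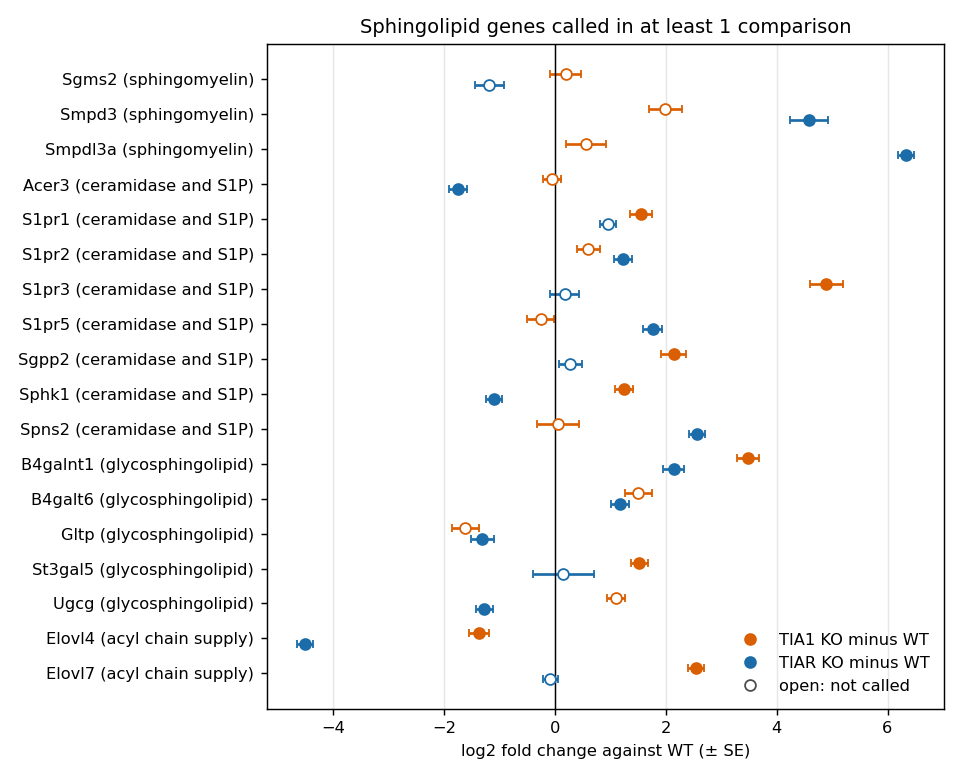
Log2 fold changes against WT, with standard errors, of the 18 sphingolipid genes called in at least 1 of the 3 comparisons; filled points were called in that comparison and open points were not. Both comparisons share the WT arrays, and only Sphk1, B4galnt1 and Elovl4 are filled in both.

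Between the knockouts, 12 of the 77 genes were called (15.6%), 3 higher and 9 lower in TIAR KO MEF, against 4.18% of all gene names, and the median difference of the 77 was −0.22. With dim probes left out, 2910 of 24025 probes and 15 of the 63 listed genes that remained were called. With a common array median 15 of the 77 were called higher and 4 lower. Without TIAR KO replicate 1 or TIAR KO replicate 2 limma called 0 of all probes, with 6318 and 6402 at an unadjusted p under 0.05, while the fold changes of these 12 kept their direction and a size above 2-fold. Of 8 genes that encode other proteins with the TLC domain of ceramide synthases, none was called in TIA1 KO MEF with limma (4 had an unadjusted p under 0.05) and 1 in TIAR KO MEF, Tlcd1, which rose by 1.77 (limma adjusted p = 0.00281). Over all gene names 4.51% and 7.18% were called there, so that nothing is read from these counts. Tlcd1 was also higher in TIAR KO than in TIA1 KO MEF by 1.27 (limma adjusted p = 0.044), and Tlcd3a (Fam57a) differed there by −1.30 (limma adjusted p = 0.0436), but by only −0.24 with a common array median.

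The 5 genes whose pattern was nearest to Lass4 were Irx1, Serpinf1, Arhgdib, Col4a2 and Tmem119. They were found by the Euclidean distance over the 6 arrays, each probe taken minus its WT mean. The candidates were 10669 probes of RefSeq mRNAs with a value on every array and well above background on all 4 knockout arrays. Probes of other transcripts were not considered. The distances were 0.99, 1.17, 1.18, 1.33 and 1.33 on the log2 scale. Irx1, a homeobox transcription factor, was not well above background in WT MEF and was at least 40.9-fold higher in TIA1 KO MEF. Serpinf1, a secreted serpin, changed by 5.99 and 5.32 in TIA1 KO and TIAR KO MEF, and Arhgdib by 6.25 and 6.61. Col4a2, a collagen chain of basement membranes, changed by 6.48 and 5.11, and Tmem119, a membrane protein, by 5.79 and 6.77. As they were picked for this likeness, their changes are a description.

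No other probe lay within 100 kb of the Lass4 probe on mm9. The nearest were Zfp958, a zinc finger gene 101.9 kb further along chromosome 8, and a probe without a gene name 132.1 kb before it. Zfp958 read 11.58 and 11.06 in WT, 11.96 and 11.73 in TIA1 KO and 12.42 and 11.99 in TIAR KO MEF. Neither was called in any comparison (limma adjusted p = 0.118 for Zfp958 in TIAR KO MEF), and both were chosen after their values were seen. The Lass5 probe had 8 others within 100 kb. In TIAR KO MEF 1 of them was called, Lima1, a cytoskeletal protein gene, which rose by 1.03 (limma adjusted p = 0.018), where 5.76% of all probes were called. In TIA1 KO MEF 1 was called, Accn2, an acid-sensing ion channel gene, which rose by 2.22 (limma adjusted p = 0.012), where 3.54% were called. Accn2 was also the 1 called between the knockouts. Of the 17 probes within 100 kb of the Lass2 probe, several of which share a gene, none was called in limma in any comparison, with 11 at an unadjusted p under 0.05 in TIA1 KO MEF, 4 in TIAR KO MEF and 1 between the knockouts. Their values were negative for 13 of the 17 in each knockout, with a median of −0.68 for TIA1 KO and −0.19 for TIAR KO, beside −0.09 and −0.02 over all probes. Setdb1, a histone methyltransferase gene whose probe starts 381 bases after that of Lass2, had values of −1.27 (limma adjusted p = 0.175) and −0.35. None of the 2 probes near Lass6 was called in limma in any comparison, with 0, 1 and 1 at an unadjusted p under 0.05. These neighbours were also named after their values were seen.

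**Figure D5:**
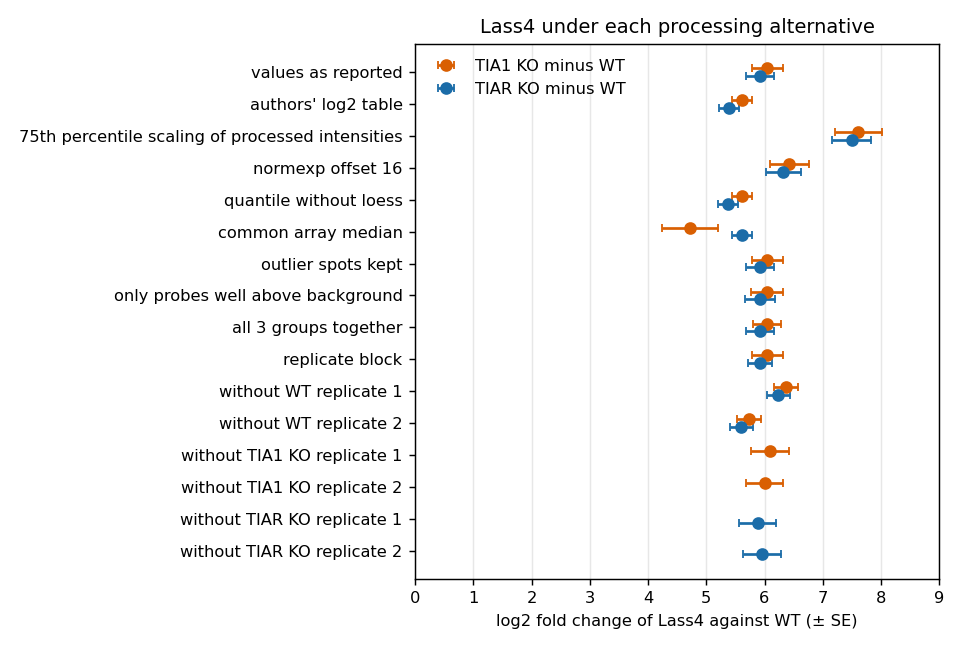
Log2 fold change of Lass4 against WT under each processing alternative, with standard errors. All values lie between 4.71 and 7.61, and the highest, 7.61 and 7.50, come from the scanner software's processed intensities. The lowest is 4.71 for TIA1 KO, with a common array median, and 5.37 for TIAR KO, without loess.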

How the data were processed

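RNA of the 3 lines of MEF was read on 6 Agilent 1-colour arrays. The authors deposited the intensity, local background, processed intensity and quality flags (a score of 0 or 1) of every spot, as Agilent Feature Extraction 10.7.3.1 gave them, and a table of normalized log2 values. Mean intensities were corrected by normexp (offset 50), taken to log2, passed once through loess against the 6-array mean and set to common quantiles. Control and outlier spots were left out, spots of a probe were averaged, and no probe was removed as dim. The methods do not name the loess reference. A probe was well above background on an array where 50% or more of its spots were rated so: 16000 to 26254 probes per array.

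Each comparison was fitted with limma (lmFit, eBayes) on its 4 arrays, with Benjamini-Hochberg adjustment over 55681 probes, so that p-values measure the spread between 2 samples per group. Of several probes of a gene, the brightest was taken. Named were the members, Lass3, Gdf1, Tia1, Tial1, Gapdh, Sptlc1, Sptlc2, Degs1, up to 4 called genes with the largest change per list and comparison, and the genes nearest to Lass4 in pattern or position. The members and lists were chosen with earlier results of these data known. The fits were tested on simulated data. Alternatives were other scalings and filters, the authors' table, joint and blocked fits, an intensity trend in eBayes and leaving out each array. Probe positions are mm9. The Lass6 probe sequence is not reported here. Computations used R 4.3.3, limma 3.58.1, data.table (version 1.17.8), Python 3.11.15, pandas 2.3.3, numpy 2.4.6 and matplotlib 3.10.9.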

Additional observations from a re-analysis of the deposited data

Results flagged for a closer look

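Sphk1 differed between the knockouts, called higher than WT in TIA1 KO MEF and lower than WT in TIAR KO MEF, and the difference itself was −2.34 ± 0.17 on the log2 scale (TIAR KO minus TIA1 KO, limma adjusted p = 0.0131, with no overlap between 2 and 2 arrays). It was −1.21 with a common array median and −2.21 with processed intensities, and it was not called in either. The TIA1 KO call was also lost in the authors' table (1.225), with processed intensities (1.10) and with a common array median, where its value was −0.33. The TIAR KO call was lost with processed intensities (−1.105) and with any array of that comparison left out (−1.14 to −1.06).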

How the results depend on the processing

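The rise of Lass4, for which it was chosen, kept its direction under all 13 alternatives in both knockouts, which is a description. Keeping outlier spots, leaving out dim probes and the joint and blocked fits returned the same fold changes. Leaving out an array could not turn the sign, as the groups did not overlap with WT. For TIA1 KO and then TIAR KO the rise was 5.61 and 5.385 in the authors' log2 table, 7.61 and 7.50 with processed intensities scaled to the 75th percentile, 6.43 and 6.33 with a normexp offset of 16, 5.61 and 5.37 without loess, and 4.71 for TIA1 KO with a common array median. Between the knockouts Lass4 was 0.89 and Lass2 0.94 with a common array median, and with an array left out Lass2 ran from −0.48 to 0.076, the last without TIAR KO replicate 2. Processed intensities moved the median of all probes to 1.98 in TIA1 KO MEF and to −1.85 between the knockouts, and the common array median moved it to −0.67 and 0.63.

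In TIA1 KO MEF 1969 probes were called, and 1293 with the authors' table, 0 with processed intensities (27765 at an unadjusted p under 0.05), 15801 with a common array median, 3986 with all 3 groups together and 0 to 10735 with an array left out. Of the 77 genes, 8 were called, and 5 with the authors' table, 0 with processed intensities, 34 with a common array median, 14 with dim probes left out, 14 with an intensity trend and 0 to 14 with an array left out. In TIAR KO MEF 12 of the 77 were called, and 7 with processed intensities. Between the knockouts 1866 probes were called, and 8307 with a common array median, 2910 with dim probes left out, 3183 with all 3 groups together and 0 to 10086 with an array left out. Of the 77, 12 were called there, and 5 with processed intensities, 19 with a common array median and 0 to 18 with an array left out. The causes were not tested. The share of calls that were higher was 61.6% in TIA1 KO MEF, 58.8% in TIAR KO MEF and 51.3% between the knockouts, and 11.9%, 34.4% and 87.2% with a common array median, with 8.28% between the knockouts with processed intensities.

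The replicate numbers did not pair the arrays (correlations of deviations 0.03, 0.08 and −0.07). With the number as a block, 671 probes and 3 of the 77 genes were called in TIA1 KO MEF and 0 and 0 between the knockouts, with 10684 probes at an unadjusted p under 0.05 in limma. Lass1 had no probe and gave no value. With 2 arrays per group, the WT signal of Lass4 so close to background limits its fold.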
